A study of Mus musculus with 10 samples.

Results

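The imprinted genes Peg3, Nnat, Peg10, Mest, Grb10, H19, Igf2, Igf2r, Plagl1 and Impact were followed through 4 deposited tables of genes that changed in Mbd3 mutant mouse embryonic stem cells. They were found by gene symbol wherever a table listed them. Of the 10 genes, 8 were listed in at least 1 table, of 8694 genes listed in at least 1 table. H19 and Igf2r were in none of the tables, and a gene that a table does not list has no value there. Of the 10, 7 are known to be expressed from the paternal allele (Peg3, Nnat, Peg10, Mest, Igf2, Plagl1 and Impact). Grb10 (in most tissues), H19 and Igf2r are known to be expressed from the maternal allele. Reads were summed over each gene, so the tables do not separate the alleles. Below, paternally or maternally expressed names the allele known to be expressed where a gene is imprinted, for some genes in certain tissues only.

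The data are RNA-seq libraries, depleted of ribosomal RNA, of E14 cells, a male mouse embryonic stem cell line, and of mutants that were derived from E14 with CRISPR/Cas9. The protein Mbd3 is a subunit of the nucleosome remodelling and deacetylation complex NuRD, and the lines separate its isoforms a, b and c. The groups were wild type E14 cells (WT), Mbd3ab KO (Mbd3ab -/-, mutated in exon 2), Mbd3c KO (Mbd3c -/-, mutated in intron 2), Mbd3abc KO (Mbd3abc -/-, mutated in exon 5) and Mbd3cΔN-ab KO (isoforms a and b lost and isoform c present with a deletion, mutated in exon 2). Each group held 2 libraries, called biological replicates by the labels, which do not say whether these were separate clones or cultures. The columns of the mutant libraries have names that read like clone names, which no source used here explains. The p-values therefore measure the spread between these libraries, which may be in part technical or a difference between clones. Every mutant was compared with the same 2 WT libraries, so the comparisons are not independent of each other.

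Imprinted genes are transcribed mainly from the copy inherited from a single parent. The choice is carried by DNA methylation that is set in the germ line at control regions and kept through the early embryo, with the DNA methyltransferase Dnmt1 and its partner Uhrf1, and with zinc finger proteins such as Zfp57 that bring the corepressor Trim28 to the methylated copy. In embryonic stem cells this methylation is known to vary between lines and with culture. Many imprinted genes act on fetal and placental growth.

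Start sites are shown for 4 of the genes to place them beside their neighbours and to show how CpG, the site of methylation, is spread in front of them. The sequences are RefSeq promoter windows of GRCm38.p6, to which 7 of the 10 genes were matched. Each is read 5′ to 3′ on the strand of the gene and ends at the base before the start site used in the tables, and capitals mark CpG. For Peg3 the stretch is the 163 bases between its start site and that of Usp29, a deubiquitinase gene transcribed in the other direction (chr7:6730420-6730582, minus strand). For Nnat (chr2:157559828-157560077, plus strand), Mest (chr6:30737803-30738052, plus strand) and Grb10 (chr11:12037421-12037670, minus strand) it is 250 bases.
Peg3: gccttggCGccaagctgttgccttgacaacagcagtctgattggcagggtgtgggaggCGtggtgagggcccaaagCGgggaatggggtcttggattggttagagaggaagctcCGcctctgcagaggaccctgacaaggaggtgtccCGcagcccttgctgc
Nnat: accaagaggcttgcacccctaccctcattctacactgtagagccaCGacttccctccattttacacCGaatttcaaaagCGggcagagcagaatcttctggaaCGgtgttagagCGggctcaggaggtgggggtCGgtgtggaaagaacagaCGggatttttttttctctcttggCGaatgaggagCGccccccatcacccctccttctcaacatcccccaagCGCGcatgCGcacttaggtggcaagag
Mest: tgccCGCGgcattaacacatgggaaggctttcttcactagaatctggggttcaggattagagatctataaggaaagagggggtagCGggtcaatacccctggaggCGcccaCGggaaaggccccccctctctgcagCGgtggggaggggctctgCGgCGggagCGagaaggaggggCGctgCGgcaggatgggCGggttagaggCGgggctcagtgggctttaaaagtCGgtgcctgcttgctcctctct
Grb10: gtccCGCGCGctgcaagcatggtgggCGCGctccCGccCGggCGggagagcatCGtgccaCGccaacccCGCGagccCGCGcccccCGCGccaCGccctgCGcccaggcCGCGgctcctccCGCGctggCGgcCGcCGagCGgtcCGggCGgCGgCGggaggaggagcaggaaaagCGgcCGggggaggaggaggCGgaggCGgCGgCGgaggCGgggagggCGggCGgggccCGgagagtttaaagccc

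The 4 stretches differed in CpG. Grb10 held 40 CpG in its 250 bases, Mest 14 and Nnat 12, and the shorter stretch between Peg3 and Usp29 held 5. In the full windows of 300 bases, with the 50 bases from the start site on, the counts were 45 for Grb10, 17 for Mest, 17 for Nnat and 13 for Peg3, against a median of 7 over 32851 windows. As many CpG were held by 1.93% of all windows for Grb10, 31.4% for Mest and for Nnat, and 37.9% for Peg3. The hexamer TGCCGC, which Zfp57 is known to bind when methylated, was searched on both strands. It matched 2 times in this window of Mest, 1 time each in those of Nnat and Grb10, and not in that of Peg3. Windows at other start sites of Mest (30733506) and Grb10 (12027971) held 0 matches, with 8 and 9 CpG. Of the other genes matched to windows, Plagl1 held 1 match and Igf2r 0. Igf2 held 1 at the start site 142661271 and 0 at its other start sites. Sequence outside such windows was not searched. The hexamer was held by 11.6% of all windows. In Nnat and Grb10 the match was not within the 250 bases shown.

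In WT cells the genes spanned a wide range of levels. On the scale of reads per kilobase of exon at equal library totals, Peg10 was highest, at 335 ± 10.7 (mean ± SD, n = 2). Mest followed at 257 ± 34.5, then Grb10 at 185 ± 4.66 and Impact at 177 ± 24.4. The WT values of Grb10 and Impact overlapped, so their order is not resolved. Peg3 stood at 92.9 ± 0.959, Nnat at 30.2 ± 0.549 and Igf2 at 20.9 ± 14.9, and the values of Nnat and Igf2 overlapped. Plagl1 was lowest, at 0.359 ± 0.507, with 0 and 6 reads in the 2 libraries.

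With a call defined as a deposited adjusted p under 0.05, Mbd3ab KO had 3 called genes of the 10, of which 1 was higher and 2 were lower, where 3.35% of 13201 genes tested were called (2.05% higher and 1.3% lower). In Mbd3c KO 1 was called, lower, where 0.353% of 10761 genes were called (0.316% higher and 0.0372% lower). In Mbd3abc KO 5 were called, 4 higher and 1 lower, where 52.1% of 15622 genes were called (27.1% higher and 24.9% lower). In Mbd3cΔN-ab KO 6 were called, 2 higher and 4 lower, where 41.5% of 14429 genes were called (21.1% higher and 20.4% lower). In Mbd3abc KO and Mbd3cΔN-ab KO the called shares of the 10, 50% and 60%, thus stood beside large shares of all genes. The median deposited log2 fold change of the called imprinted genes was -0.73 in Mbd3ab KO, 1.06 in Mbd3abc KO and -0.70 in Mbd3cΔN-ab KO, beside 0.88, 0.46 and 0.37 over all called genes. WT and mutant libraries did not overlap for any of these genes in the tables that list them, which held for every called gene of the 4 tables. In such bulk samples, fewer cells that express a gene and less of its RNA per cell cannot be told apart.

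**Figure D1:**
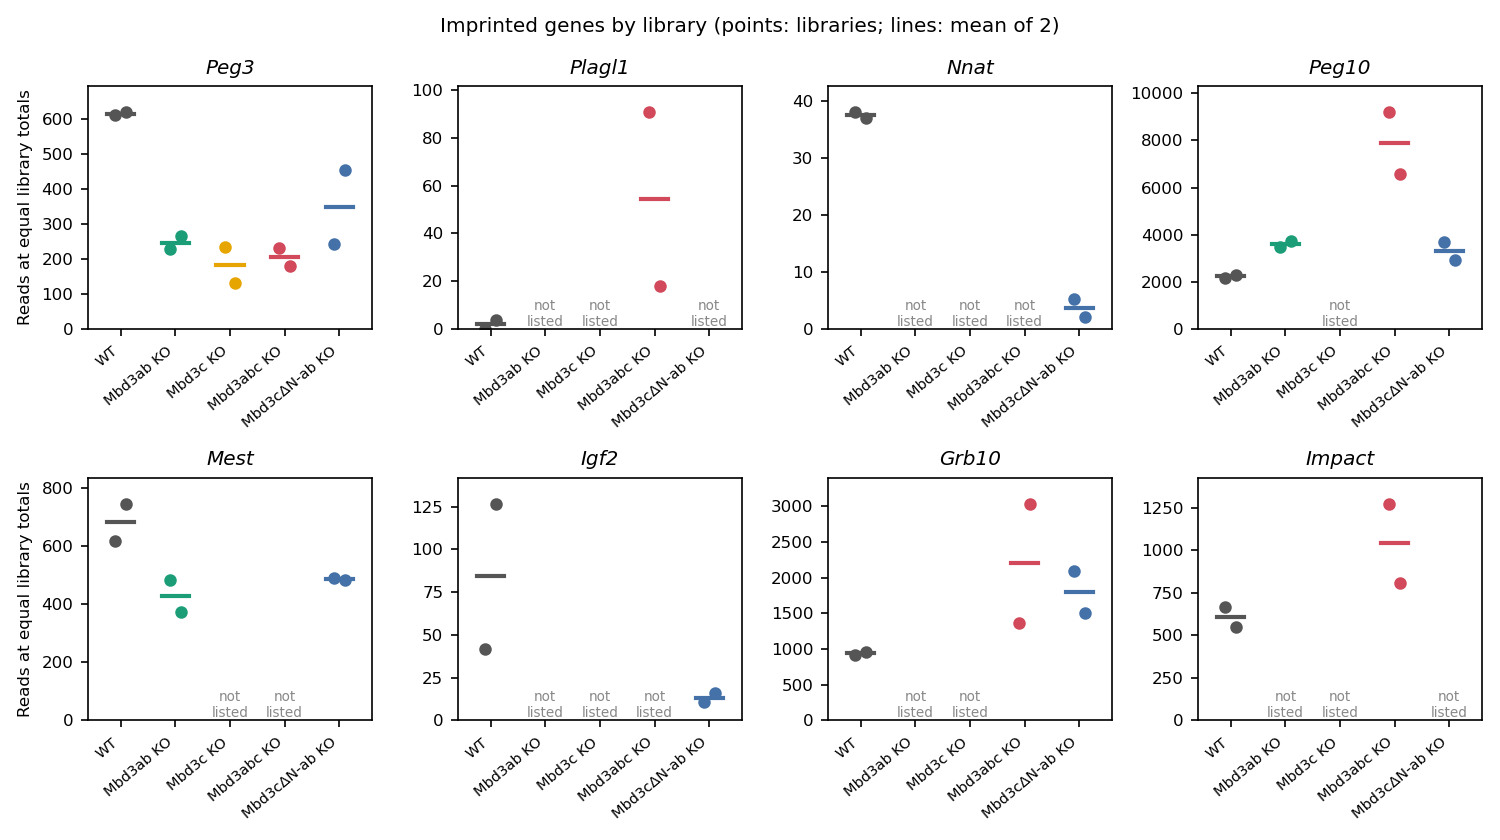
Reads at equal library totals (vertical axis, linear from 0, a scale of its own in each panel) for the 8 listed imprinted genes in WT and the 4 mutants, with points for the 2 libraries of a group and lines for their mean. Peg3 lies at 610 and 619 in WT and at 452 or below in each of the 8 mutant libraries, and Peg10 reaches 9202 and 6576 in Mbd3abc KO.

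Peg3, which encodes a large zinc finger transcription factor, was lower in all 4 mutants. It lies on chromosome 7, 6705960 to 6730419 of mm10, on the minus strand. At equal library totals its reads were 610 and 619 in WT, 227 and 265 in Mbd3ab KO, 234 and 130 in Mbd3c KO, 230 and 180 in Mbd3abc KO, and 243 and 452 in Mbd3cΔN-ab KO. Both WT libraries were above all 8 mutant libraries, and the second Mbd3cΔN-ab KO library was the highest of the mutants. In normalized reads, which are reads divided by the size factors of each table, the fall in group means was 2.69-fold in Mbd3ab KO, 3.46-fold in Mbd3c KO, 3.16-fold in Mbd3abc KO and 1.88-fold in Mbd3cΔN-ab KO. In the authors' deposited tables the DESeq2 log2 fold change of Peg3 was -1.34 ± 0.21 (SE) in Mbd3ab KO, with adjusted p = 2.18e-07, and -1.41 ± 0.37 in Mbd3c KO, with adjusted p = 0.0342. The authors' deposited DESeq2 values were -1.63 ± 0.17 in Mbd3abc KO, with adjusted p = 4.41e-21, and -0.82 ± 0.32 in Mbd3cΔN-ab KO, with adjusted p = 0.0298. Peg3 kept its call in Mbd3abc KO under every alternative run. With edgeR on the recovered reads the adjusted p of Peg3 was 0.0836 in Mbd3ab KO and 0.409 in Mbd3c KO. The other 3 calls were lost in DESeq2 refits without the first or without the second WT library, with adjusted p = 0.511 and 0.641 in Mbd3ab KO, 1 and 1 in Mbd3c KO, and 0.160 and 0.186 in Mbd3cΔN-ab KO. Without the first Mbd3cΔN-ab KO library the log2 fold change there was -0.51 (adjusted p = 0.0610), and without the second it was -1.41. Without the first Mbd3c KO library the log2 fold change in Mbd3c KO was -2.07. The second Mbd3c KO library, which remained, had 63 Peg3 reads. Its total was the lowest of the series, at 0.485 times that of the first WT library.

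Few genes were called in every mutant. Mbd3c KO had 38 called genes, 34 higher and 4 lower, which limits how many could be called in all 4 tables. Of 8683 called genes 5 were called in all 4 tables, and Peg3 was the 1 of these that was lower throughout. The other 4, Aldh1l1, Klhdc7a, Lamb3 and Sohlh2, were higher in each table. Nearest to Peg3 by the log2 ratios of its 8 mutant libraries to WT, among these 4 candidates, were Aldh1l1, a folate enzyme gene, Sohlh2, a germ cell transcription factor gene, and Lamb3, a laminin gene. Their Euclidean distances were 8.24, 10.8 and 11.5, and all 3 moved in the other direction from Peg3. All 4 candidates were higher, so none could match Peg3, and the distances do not show how unusual its pattern is. Sohlh2 had deposited DESeq2 log2 fold changes of 1.30 ± 0.35, 2.01 ± 0.21, 2.38 ± 0.29 and 2.87 ± 0.20 (SE) in the authors' deposited tables, in the order Mbd3c KO, Mbd3ab KO, Mbd3cΔN-ab KO and Mbd3abc KO.

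The 2 neighbours of Peg3 that were listed, both in Mbd3cΔN-ab KO alone, were higher there while Peg3 was lower. Usp29, paternally expressed like Peg3, starts 164 bases from Peg3 on the other strand. In Mbd3cΔN-ab KO Usp29 had 83.0 and 101 normalized reads, above 35.4 and 53.8 in WT, while Peg3 in the same libraries had 276 and 528, below 745 and 769. Usp29 rose 2.06-fold, with a DESeq2 log2 fold change of 0.92 ± 0.33 (SE) in the authors' deposited table and adjusted p = 0.0165. Zim3, a maternally expressed gene of the cluster that was counted as a noncoding transcript, rose 4.87-fold there. It went from 4.89 and 3.12 normalized reads to 22.9 and 16.1, and these are few reads. Neither was listed for the other 3 mutants, and Zfp264 and Zim1 of the same cluster were listed in no table, so these have no value beside the fall of Peg3.

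Plagl1, a zinc finger transcription factor gene known to regulate other imprinted genes, was called higher in Mbd3abc KO. It lies on chromosome 10, 13090788 to 13131695 of mm10, on the plus strand. Plagl1 had 0 and 4.89 normalized reads in WT and 108 and 22.9 in Mbd3abc KO. Both mutant libraries were above both WT libraries, and the first mutant library was several times above the second. The ratio of group means was 26.8, and the DESeq2 log2 fold change in the authors' deposited table was smaller, at 2.43 ± 0.69 (SE), with adjusted p = 0.00131. A DESeq2 refit of all libraries gave 3.61 for Plagl1, and one without the second WT library 3.79. With the first Mbd3abc KO library left out Plagl1 had a log2 fold change of 1.40 (adjusted p = 0.209), and with the second left out 1.17 (adjusted p = 0.295).

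**Figure D2:**
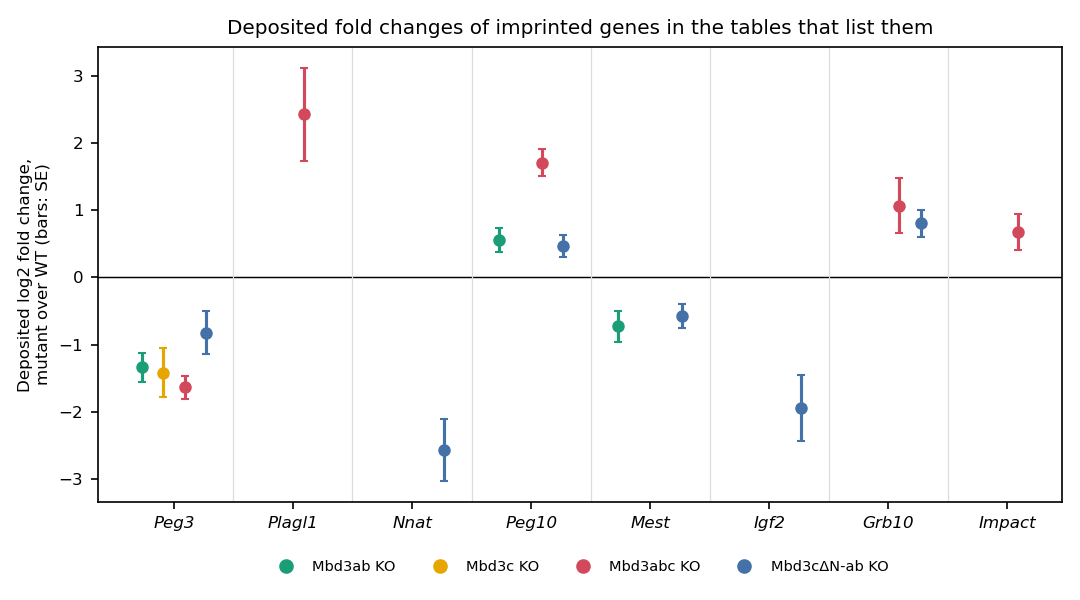
DESeq2 log2 fold changes of mutant over WT from the authors' deposited tables (vertical axis, points, with bars for the SE) for the 8 listed imprinted genes, coloured by mutant. Peg3 lies below 0 in all 4 mutants and Peg10 above 0 in 3, and Nnat (-2.57) and Igf2 (-1.93) have the lowest values, both in Mbd3cΔN-ab KO.

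Among the genes of growth factor signalling, Igf2 and Grb10 moved in opposite directions in Mbd3cΔN-ab KO. Igf2 encodes a fetal growth factor, Igf2r the receptor that clears it, H19 the noncoding RNA next to Igf2, and Grb10 an adaptor that restrains insulin and Igf receptors. Igf2 (chromosome 7, 142650768 to 142658804 of mm10, minus strand) had 51.3 and 157 normalized reads in WT and 12.0 and 18.6 in Mbd3cΔN-ab KO. Both mutant libraries were below both WT libraries, and the 2 WT libraries lay further apart than the lower of them and the mutant libraries did. The group means differed 6.81-fold, and the DESeq2 log2 fold change in the authors' deposited table was -1.93 ± 0.49 (SE), with adjusted p = 0.000393. Without the second WT library, the higher one, a DESeq2 refit gave -1.03 for Igf2 (adjusted p = 0.413), and without the first it gave -2.55. With edgeR the value was -2.75. Ins2, beside Igf2, was called in no table.

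Grb10, on chromosome 11, 11930499 to 12037420 of mm10, minus strand, was higher in both mutants that list it. It had 1187 and 1241 normalized reads in WT and 1631 and 3861 in Mbd3abc KO. In the Mbd3cΔN-ab KO table it had 1126 and 1186 in WT and 2368 and 1756 in the mutant. All 4 mutant libraries were above WT, and the 2 Mbd3abc KO libraries lay far apart. Grb10 rose 2.26-fold in Mbd3abc KO, with a DESeq2 log2 fold change of 1.06 ± 0.41 (SE) in the authors' deposited table and adjusted p = 0.0209. In Mbd3cΔN-ab KO the rise was 1.78-fold, and the authors' deposited DESeq2 log2 fold change was 0.80 ± 0.20 (SE), with adjusted p = 0.000423. The direct edgeR contrast of the 2 mutants gave a log2 difference of 0.29 ± 0.33 (SE), with a 95% confidence interval from -0.46 to 1.05 and adjusted p = 0.540. Grb10 lost its call in DESeq2 refits without the first WT library, with adjusted p = 0.551 in Mbd3abc KO and 0.0661 in Mbd3cΔN-ab KO, and in Mbd3abc KO also with library totals in place of size factors (adjusted p = 0.0576). Its log2 fold change in Mbd3abc KO was 1.65 without the first Mbd3abc KO library and 0.42 without the second (adjusted p = 0.0493). In its cluster Ddc, the gene of aromatic amino acid decarboxylase, rose 1.95-fold in Mbd3abc KO, and Cobl, an actin nucleator gene, rose 1.24-fold there and 1.31-fold in Mbd3cΔN-ab KO.

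Peg10, a retrotransposon-derived gene needed for the placenta, rose in 3 mutants and most in Mbd3abc KO. It lies on chromosome 6, 4747306 to 4760516 of mm10, plus strand. Normalized reads of Peg10 were 2409 and 2577 in WT and 3494 and 3975 in Mbd3ab KO. In the Mbd3abc KO table they were 2809 and 2966 in WT and 10968 and 8359 in the mutant. In the Mbd3cΔN-ab KO table they were 2666 and 2835 in WT and 4198 and 3432 in the mutant. All 6 mutant libraries were above both WT libraries, and those of Mbd3abc KO stood apart from the other 4. The group means differed 1.50-fold in Mbd3ab KO, 3.35-fold in Mbd3abc KO and 1.39-fold in Mbd3cΔN-ab KO. In the authors' deposited tables the DESeq2 log2 fold changes of Peg10 were 0.56 ± 0.17 (SE), 1.71 ± 0.20 and 0.46 ± 0.16, with adjusted p = 0.0399, 4.14e-17 and 0.0149. Peg10 kept its call in Mbd3abc KO under every alternative run. In Mbd3ab KO its adjusted p was 0.125 with edgeR and 0.0517 in a DESeq2 refit of all libraries. In DESeq2 refits without the first or the second WT library its adjusted p was 1 and 1 in Mbd3ab KO and 0.393 and 0.246 in Mbd3cΔN-ab KO, and without the first Mbd3cΔN-ab KO library it was 0.0781.

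The difference in Peg10 between mutants was tested directly with edgeR on the reads recovered for genes listed in both tables, with library totals as offsets. Peg10 was higher in Mbd3abc KO than in Mbd3cΔN-ab KO by 1.25 ± 0.19 (SE) on the log2 scale, with a 95% confidence interval from 0.82 to 1.67 and adjusted p = 0.0209, and 6.28% of the 5413 genes tested differed. It was higher in Mbd3abc KO than in Mbd3ab KO by 1.13 ± 0.18, with an interval from 0.71 to 1.55 and edgeR adjusted p = 0.00448, where 30% of 370 genes differed. Mbd3cΔN-ab KO and Mbd3ab KO gave a difference of -0.11, with an interval from -0.49 to 0.26 and edgeR adjusted p = 0.803, where 1.42% of 353 genes differed. The difference between Mbd3abc KO and Mbd3cΔN-ab KO was of nearly the same size without the first WT library (1.25, adjusted p = 0.0633), without the second (1.25, 0.0641) and without the second Mbd3cΔN-ab KO library (1.09, 0.0547), and passed the threshold in none of these 3 fits. Of the 10 genes, 3 were testable between Mbd3abc KO and Mbd3cΔN-ab KO and 1 differed at an adjusted p of 0.05, of 2 testable between Mbd3abc KO and Mbd3ab KO 1 did, and of 3 testable between Mbd3cΔN-ab KO and Mbd3ab KO 0 did (0 also at an unadjusted p of 0.05, and 0 with DESeq2). Of the other imprinted genes listed in both tables, 1 of 14, 1 of 2 and 0 of 2 differed for these pairs, and the gene that differed in the first and the second pair was Sfmbt2.

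For Peg3 these direct edgeR contrasts passed the threshold for no pair of mutants. Peg3 was lower in Mbd3abc KO than in Mbd3cΔN-ab KO by a log2 difference of -0.77 ± 0.28 (SE), with an interval from -1.41 to -0.13 and adjusted p = 0.110. That value depended on the Mbd3cΔN-ab KO libraries, with adjusted p = 0.0333 without the first and 0.491 without the second. Against Mbd3ab KO the log2 difference of Peg3 was -0.26 for Mbd3abc KO (interval from -0.83 to 0.31) and 0.51 for Mbd3cΔN-ab KO (interval from -0.23 to 1.24).

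Genes around Peg10 that were called were also higher in Mbd3abc KO and Mbd3cΔN-ab KO. Their GC content, with which direction went in these mutants, is given further below. Sgce, paternally expressed and encoding epsilon-sarcoglycan, starts 102 bases from Peg10 on the other strand. Sgce had 16.7 and 14.7 normalized reads in WT and 86.0 and 53.4 in Mbd3abc KO, a rise of 4.44-fold with a DESeq2 log2 fold change of 1.92 ± 0.44 (SE) and adjusted p = 4.25e-05 in the authors' deposited table. In Mbd3cΔN-ab KO Sgce rose 2.57-fold. The maternally expressed genes of the cluster moved likewise: Ppp1r9a, the gene of the actin-binding protein neurabin, rose 2.65-fold in Mbd3abc KO and 1.94-fold in Mbd3cΔN-ab KO. The paraoxonase genes Pon3 and Pon2 rose 10.3-fold and 2.60-fold in Mbd3abc KO, and Pon3 rose 4.65-fold in Mbd3cΔN-ab KO. Pon3 had 3 and 8 reads in WT, so its ratio rests on few reads. Asb4, Calcr and Tfpi2 of the same cluster were called in no table.

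Nnat and Mest were lower where they were called. Nnat encodes neuronatin, a small membrane proteolipid, and lies on chromosome 2, 157560078 to 157562525 of mm10, plus strand. Nnat had 46.4 and 46.0 normalized reads in WT and 6.02 and 2.54 in Mbd3cΔN-ab KO. The WT libraries were nearly equal and both mutant libraries were far below them, at 5 and 3 reads. The fall was 10.8-fold, the largest of the 10 genes in the 4 tables, with a DESeq2 log2 fold change of -2.57 ± 0.46 (SE) in the authors' deposited table and adjusted p = 2.77e-07. In DESeq2 refits without the first or the second WT library Nnat had log2 fold changes of -1.73 and -1.68 (adjusted p = 0.105 and 0.0940). Without the second Mbd3cΔN-ab KO library it was -1.81 (adjusted p = 0.0176), and with edgeR it was -3.48. Among the 469 other genes called in that table and in no other, the nearest to Nnat in their ratios to WT were Eif2s3y, a Y-linked translation factor gene, Gm3143 and Rnu73b, at distances of 0.653, 0.837 and 0.844 over 2 libraries. Their DESeq2 log2 fold changes in the authors' deposited table were -2.16 ± 0.48 (SE), -1.26 ± 0.53 and -1.43 ± 0.52, smaller falls than that of Nnat. Blcap, the maternally expressed gene that holds Nnat in an intron, was called in no table.

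Mest, the gene of a hydrolase-like protein, lies on chromosome 6, 30738053 to 30748466 of mm10, plus strand. Mest had 681 and 843 normalized reads in WT and 483 and 397 in Mbd3ab KO, a fall of 1.73-fold. In the Mbd3cΔN-ab KO table it had 754 and 927 in WT and 553 and 564 in the mutant, a fall of 1.50-fold. All 4 mutant libraries lay below both WT libraries in the same table. In the authors' deposited tables the DESeq2 log2 fold changes of Mest were -0.73 ± 0.22 (SE) and -0.57 ± 0.18, with adjusted p = 0.0379 and 0.00394. The direct edgeR contrast of the 2 mutants gave 0.19 for Mest, with an interval from -0.35 to 0.72 and adjusted p = 0.780. In DESeq2 refits without the first or the second WT library adjusted p was 1 and 1 in Mbd3ab KO and 0.148 and 0.563 in Mbd3cΔN-ab KO, and without the second Mbd3ab KO library it was 0.0739. In Mbd3ab KO adjusted p for Mest was 0.205 with edgeR and 0.0731 in a DESeq2 refit of all libraries. With library totals in place of size factors it was 0.353 in Mbd3ab KO and 0.0514 in Mbd3cΔN-ab KO. Copg2, the coatomer subunit gene that overlaps Mest by 913 bases on the other strand, rose 1.42-fold in Mbd3abc KO, where Mest was not listed. Klf14 of that cluster was called in no table.

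Impact, which encodes a protein that restrains the stress kinase Gcn2, was higher in Mbd3abc KO. It lies on chromosome 18, 12972252 to 12992948 of mm10, plus strand. Impact had 855 and 710 normalized reads in WT and 1518 and 1029 in the mutant, with both mutant libraries above WT. The rise was 1.63-fold, with a DESeq2 log2 fold change of 0.68 ± 0.27 (SE) in the authors' deposited table and adjusted p = 0.0236. Impact lost its call in DESeq2 refits without the first WT library (adjusted p = 0.0767), without the second (0.281) and without the first Mbd3abc KO library (0.165, with a log2 fold change of 0.39).

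A list of 62 other imprinted genes was read beside these 10. In Mbd3ab KO 3 were called, Sfmbt2 and Phlda2 lower and Slc22a18, named for this count, 2.13-fold higher. This is 4.84% of the list, near the 3.35% of all genes tested. The Mbd3c KO table listed none of them. In Mbd3abc KO 25 were called, 15 higher and 10 lower, with a median log2 fold change of 0.48 beside 0.46 over all called genes. In Mbd3cΔN-ab KO 18 were called, 10 higher and 8 lower, with a median of 0.47 beside 0.37. As shares of the list these are 40.3% and 29.0%, below the 52.1% and 41.5% of all genes tested, though how many of the list were tested is not known from the tables. Both directions were found for both parental classes, which are those known from where the genes are imprinted and were not measured in these cells. In Mbd3abc KO 4 paternally expressed genes of 27 were higher and 6 lower, and 11 maternally expressed genes of 35 were higher and 4 lower. In Mbd3cΔN-ab KO 4 paternally expressed genes were higher and 3 lower, and 6 maternally expressed genes were higher and 5 lower. Snrpn and Snurf, both counted as lower in Mbd3abc KO, overlap on the same strand and share reads, so their values are uncertain and not separate.

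**Figure D3:**
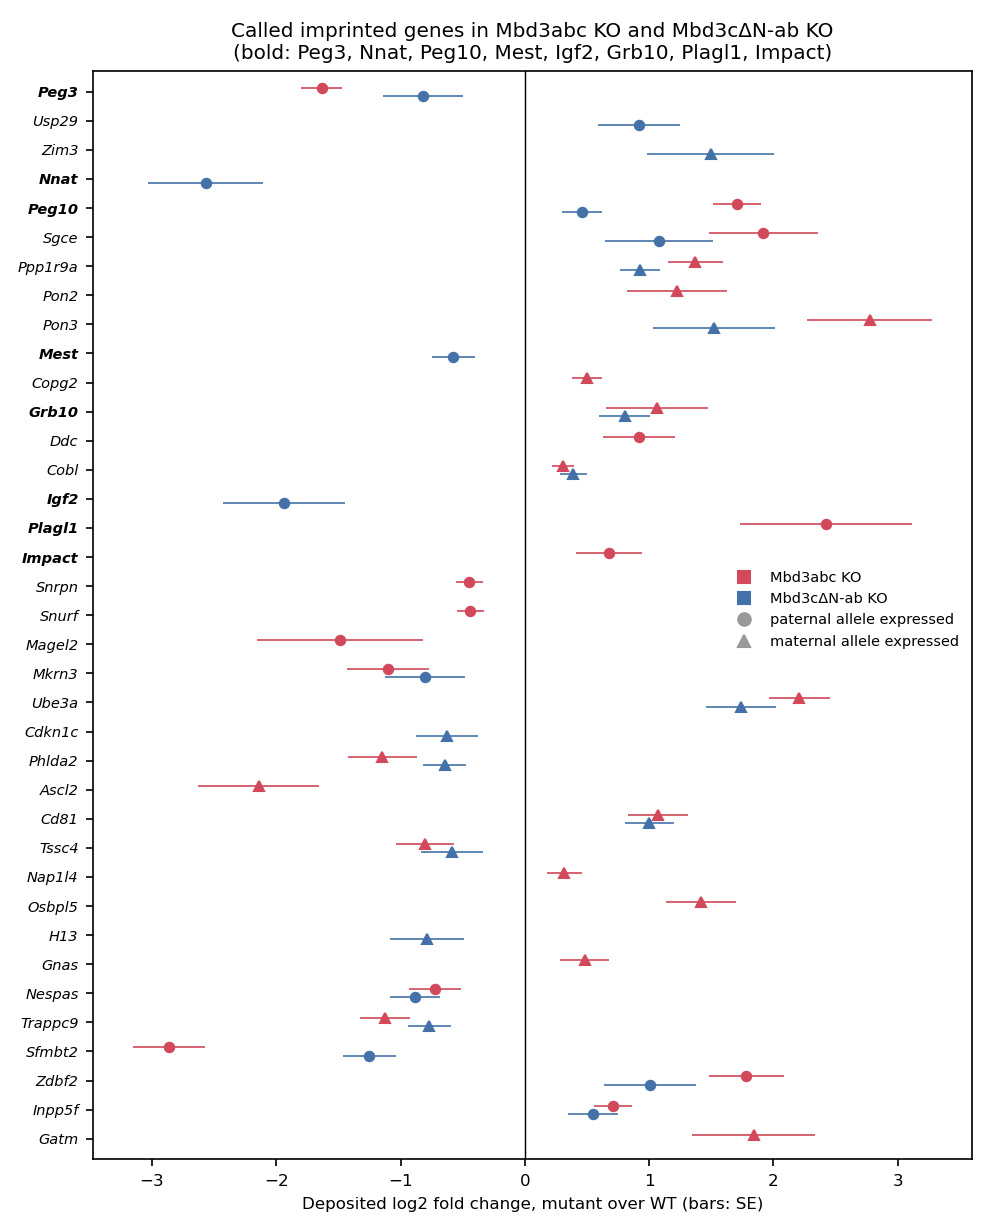
DESeq2 log2 fold changes of mutant over WT from the authors' deposited tables (horizontal axis, points, with bars for the SE) of all imprinted genes called in Mbd3abc KO (red) or Mbd3cΔN-ab KO (blue), circles for paternally and triangles for maternally expressed genes. Both parental classes lie on both sides of 0, from Sfmbt2 at -2.86 to Pon3 at 2.77, both in Mbd3abc KO.

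Outside the clusters of the 10 genes, the largest change of the list was that of Sfmbt2, a paternally expressed Polycomb group gene known for its part in trophoblast. Sfmbt2 had 1166 and 1160 normalized reads in WT and 503 and 545 in Mbd3ab KO. It had 1359 and 1335 in WT and 211 and 127 in the Mbd3abc KO table, and 1290 and 1276 in WT and 436 and 601 in the Mbd3cΔN-ab KO table. The WT libraries were close together and all 6 mutant libraries were below them, those of Mbd3abc KO lowest. The falls were 2.22-fold, 7.98-fold and 2.47-fold, with DESeq2 log2 fold changes of -1.10 ± 0.18 (SE), -2.86 ± 0.29 and -1.25 ± 0.21 in the authors' deposited tables. The direct edgeR contrast put Sfmbt2 lower in Mbd3abc KO than in Mbd3cΔN-ab KO by -1.71 on the log2 scale (adjusted p = 0.0222), and lower than in Mbd3ab KO by -1.87 (adjusted p = 0.00448).

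Phlda2, a maternally expressed gene that restrains placental growth, also fell in 3 mutants, by 1.88-fold in Mbd3ab KO, 2.29-fold in Mbd3abc KO and 1.59-fold in Mbd3cΔN-ab KO. Ascl2, a trophoblast transcription factor gene of the same cluster, fell 5.64-fold in Mbd3abc KO, from 33.5 and 42.4 to 6.77 and 6.68 normalized reads. Magel2, a paternally expressed gene of the Snrpn cluster, fell 4.98-fold there, with 2 reads in each mutant library. Other genes of the maternal class rose in Mbd3abc KO: the ubiquitin ligase gene Ube3a 4.84-fold, Gatm, of creatine synthesis, 4.69-fold, and Osbpl5, of lipid transport, 2.77-fold. Ube3a also rose 3.66-fold in Mbd3cΔN-ab KO. The paternally expressed gene Zdbf2 rose 3.66-fold in Mbd3abc KO and 2.23-fold in Mbd3cΔN-ab KO.

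Genes known to set or keep the methylation of imprints were mostly lower in Mbd3abc KO and Mbd3cΔN-ab KO where they were called. Direction also went with the GC content of transcripts in these mutants, which is given for these genes further below. Of 11 such genes 8 were called in Mbd3abc KO, 7 lower and 1 higher, and 5 in Mbd3cΔN-ab KO, all lower. The called shares were 72.7% and 45.5%, the second near the background, beside 52.1% (24.9% lower) and 41.5% (20.4% lower) of all genes tested. Dppa3, which protects methylation in the zygote, fell 63.1-fold in Mbd3abc KO, to 5 and 2 reads, and 27.0-fold in Mbd3cΔN-ab KO, to 4 and 12 reads. Its DESeq2 log2 fold changes in the authors' deposited tables were -5.15 ± 0.45 (SE) and -4.01 ± 0.37. In Mbd3ab KO Dppa3 was the 1 gene of these called, with 165 and 203 normalized reads in WT and 23.7 and 4.52 in the mutant, and a DESeq2 log2 fold change of -2.43 in the authors' deposited table. Trim28 fell 2.79-fold in Mbd3abc KO, from 41491 and 38713 to 13112 and 15628 normalized reads, and 2.03-fold in Mbd3cΔN-ab KO. The methyltransferase gene Dnmt3b fell 2.37-fold and 2.01-fold, Uhrf1 1.86-fold and 1.63-fold, and the histone methyltransferase gene Setdb1 1.39-fold and 1.30-fold in these mutants. In Mbd3abc KO Dnmt1 fell 1.45-fold and Dnmt3l 1.43-fold, and Ctcf, an insulator protein gene, rose 1.68-fold. Zfp57, Zfp445 and Dnmt3a were called in no table. DNA methylation was not measured in these tables, and the part of these genes in the levels of the imprinted genes was not tested.

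Direction of change went with the GC content of transcripts in Mbd3abc KO and Mbd3cΔN-ab KO. Of the 10 genes, Peg3 and Mest moved against it, while Peg10, Plagl1, Impact, Nnat and Igf2 moved with it. Called genes were put into 5 classes of equal size by the GC content of their GENCODE M21 transcripts. In the lowest class 98.4% of called genes were higher in Mbd3abc KO and 99.2% in Mbd3cΔN-ab KO, and in the highest class 10.4% and 6.28%. Peg3, with a GC content of 46.8%, fell in classes where 86.1% and 92.9% of genes were higher. Mest (47.4%) fell in Mbd3cΔN-ab KO in that class of 92.9%. Peg10 (47.2%) and Plagl1 (46.4%) rose with their class in Mbd3abc KO, as Impact (42.1%) did in a class where 98.4% were higher. Nnat (57.0%) and Igf2 (55.8%) fell in Mbd3cΔN-ab KO in a class where 14.1% were higher. Grb10 (48.5%) was in the middle class, where 45.0% and 42.3% were higher. Of the genes that set or keep imprints, Trim28 (59.6%) fell in Mbd3abc KO in the highest class. Dnmt3b (53.6%), Uhrf1 (53.7%), Dnmt3l (53.5%) and Dnmt1 (53.1%) fell there in a class where 20.7% were higher. Setdb1 (49.2%) fell in the middle class. In the class of 86.1% Dppa3 (45.3%) fell and Ctcf (46.4%) rose. Near Peg10, Sgce (46.6%), Ppp1r9a (45.6%), Pon3 (44.5%) and Pon2 (46.9%) rose in Mbd3abc KO in the class of 86.1%. In Mbd3cΔN-ab KO Sgce, Ppp1r9a and Pon3 rose in the class of 92.9%, as did Usp29 (43.6%) and Zim3 (45.7%) near Peg3. Elsewhere Ube3a (36.9%) and Zdbf2 (42.3%) rose in the lowest class of both mutants, and Gatm (43.2%) in that of Mbd3abc KO. In Mbd3abc KO Ascl2 (59.6%) and Magel2 (57.6%) fell in the highest class, where Osbpl5 (56.9%) rose. Phlda2 (56.5%) fell in classes where 20.7% and 14.1% were higher, while Sfmbt2 (46.0%) fell in the classes of 86.1% and 92.9%. The part of GC content in these values was not tested.

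**Figure D4:**
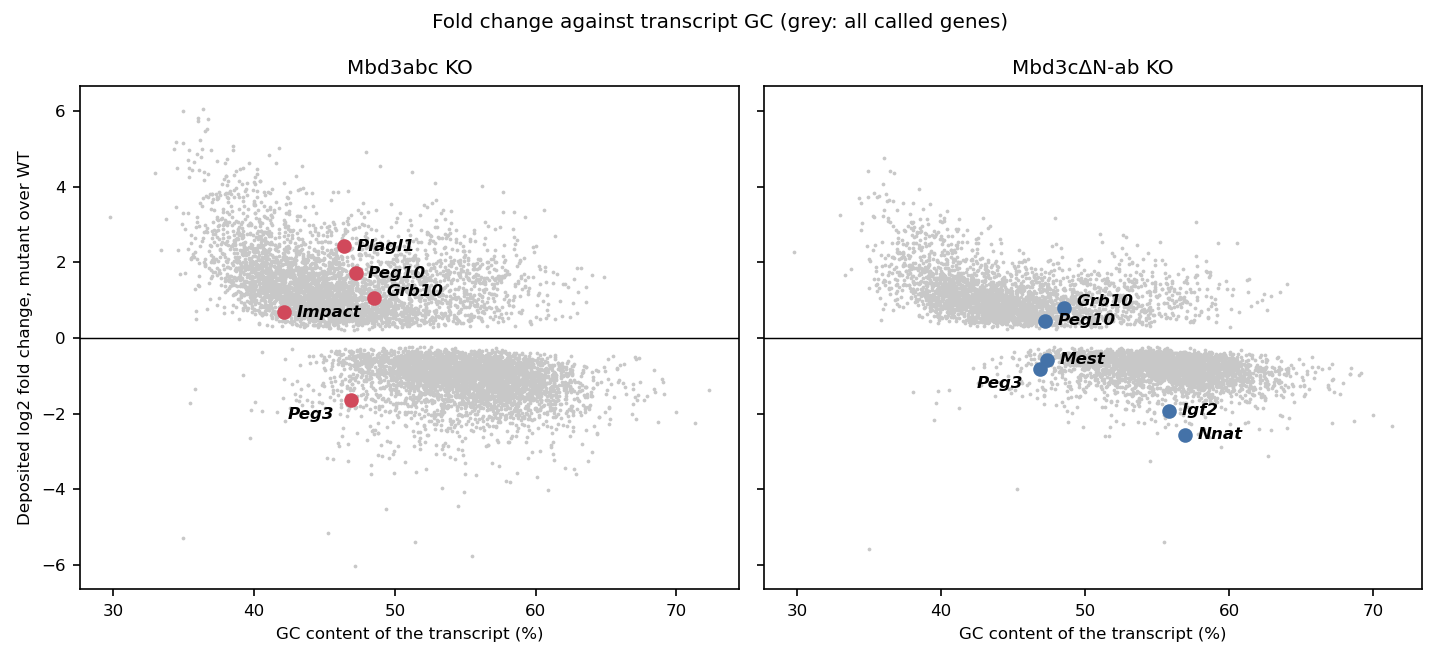
DESeq2 log2 fold change of mutant over WT from the authors' deposited tables (vertical axis) against GC content of the transcript in percent (horizontal axis) for all called genes (grey) and the imprinted genes (coloured), for Mbd3abc KO on the left and Mbd3cΔN-ab KO on the right. Most grey points at low GC lie above 0 and most at high GC below, and Peg3 (46.8% GC) lies below 0 in both panels.

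The label of the cells and the targeted gene were read in the same tables. Mbd3 was lower in both libraries of Mbd3ab KO, Mbd3abc KO and Mbd3cΔN-ab KO, with DESeq2 log2 fold changes of -1.31, -3.59 and -2.44 in the authors' deposited tables, and was not listed in Mbd3c KO. The counts of called markers that follow stand beside 52.1% of all genes called in Mbd3abc KO, 41.5% in Mbd3cΔN-ab KO, 3.35% in Mbd3ab KO and 0.353% in Mbd3c KO. Sums are over the called markers of each table alone, so they differ between tables for the same WT libraries. They follow the markers with most reads and can hide opposite changes. Of 10 embryonic stem cell markers 7 were called in Mbd3abc KO, 3 higher and 4 lower, with summed normalized reads of 43011 to 43190 in WT and 31028 to 33175 in the mutant. Klf4, Sox2 and Tdgf1 were higher there, and Pou5f1, Esrrb, Utf1 and Fgf4 lower. In Mbd3cΔN-ab KO 4 were called, a share near the background, 1 higher and 3 lower (28632 to 28980 in WT, 16653 to 19370 in the mutant), and the other tables listed none. Of 8 trophoblast markers, of interest because Peg10, Phlda2, Ascl2 and Sfmbt2 are trophoblast genes, 3 were higher in Mbd3abc KO (266 to 325 summed in WT, 951 to 1708 in the mutant) and 2 higher and 2 lower in Mbd3cΔN-ab KO (1278 to 1296 in WT, 813 to 890 in the mutant). In Mbd3ab KO 3 were higher and 1 lower (1254 to 1261 in WT, 1114 to 1186 in the mutant), and in Mbd3c KO 1 was higher (75.1 to 98.1 in WT, 286 to 307 in the mutant). The lower marker in Mbd3ab KO was Tfap2c, with 1026 and 979 normalized reads in WT and 363 and 556 in the mutant. Eomes, Krt8 and Krt18 rose there 2.54-fold, 2.94-fold and 2.59-fold. In Mbd3cΔN-ab KO Tfap2c and Hand1 were lower, and Eomes and Krt8 higher. Of 6 primitive endoderm markers 1 was higher in Mbd3abc KO (10.6 to 23.2 in WT, 46.4 to 120 in the mutant). Of 6 fibroblast markers 1 was higher and 1 lower in Mbd3abc KO (210 to 228 in WT, 574 to 590 in the mutant) and in Mbd3cΔN-ab KO (200.3 to 216 in WT, 339 to 385 in the mutant). Thy1 was the higher and Col1a1 the lower in each of these mutants. Of 5 neural markers 3 were lower in both (2213 to 2294 in WT and 876 to 1197 in Mbd3abc KO, 2100 to 2192 and 1014 to 1026 in Mbd3cΔN-ab KO), with Pax6 at 0 reads in Mbd3abc KO. The part of such markers in the imprinted genes' values was not tested. Relative to the first WT library, total reads ranged from 0.485 to 1.59 times over the 10 libraries, with the absolute totals unknown.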

How the data were processed

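Strand-specific libraries were made from total RNA after removal of ribosomal RNA, per the labels' protocols. Per the submitters' processing notes the authors used TopHat2, HOMER and DESeq2 with the build mm10, and versions are not stated there. Per the file headers, reads in exons were counted per gene with HOMER's minus strand setting. The authors deposited 4 tables of selected genes (443, 38, 8141 and 6000), and 1, 0, 9 and 11 genes with an adjusted p of 0.05 or more were not counted as called. The deposited read columns hold a normalized signal, scaled to equal totals within a table. The deposited log2 fold change with its SE, p-value and adjusted p-value come from DESeq2, per the file headers. A deposited score, the Wald statistic, was not used.

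Whole reads were recovered from the steps of the signal: 100% of values were whole within 0.006. The WT reads were equal in all tables for every shared gene. Size factors came from the deposited mean levels, and the number of genes tested from each gene's p, rank and adjusted p. Folds are ratios of means, given where each group had more than 3 reads in all, and are larger than the deposited log2 fold changes for genes with few reads. Calls are the authors' at an adjusted p of 0.05. Mutants were compared with edgeR 4.0.16 (quasi-likelihood, Benjamini-Hochberg over genes listed in both tables, library totals as offsets), in R 4.3.3. Alternatives were an adjusted p of 0.01, at least 2-fold change, a minimum of 10 reads, edgeR and DESeq2 1.42.0 on recovered reads (edgeR called 0 genes in Mbd3ab KO and in Mbd3c KO, 7805 in Mbd3abc KO and 5509 in Mbd3cΔN-ab KO), library totals, TMM and leaving out each library. Scripts were tested on simulated data.

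Named genes were the 10, all genes of their clusters, the 8 largest changes among other imprinted genes and those called in more than 2 tables, called genes of imprint maintenance, and the 3 genes nearest to Peg3 and Nnat by Euclidean distance of log2 ratios to WT (pseudocount 1). The members and lists were chosen with earlier results of these data known.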

Additional observations from a re-analysis of the deposited data

Results flagged for a closer look

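Peg10 differed between mutants when the difference itself was tested with edgeR's quasi-likelihood test. Its log2 difference was 1.25 between Mbd3abc KO and Mbd3cΔN-ab KO (adjusted p = 0.0209) and 1.13 between Mbd3abc KO and Mbd3ab KO (adjusted p = 0.00448), with both Mbd3abc KO libraries above all 4 libraries of the other mutants at equal library totals. Sgce, whose start site lies 102 bases from that of Peg10, gave a log2 difference of 0.78 between Mbd3abc KO and Mbd3cΔN-ab KO, with a 95% confidence interval from -0.16 to 1.72 and edgeR adjusted p = 0.218.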

How the results depend on the processing

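No paired analysis was possible because the columns of the mutant libraries carry no replicate numbers. Leaving out the first or second library means the first or second column of a group. Among the 10 genes, no log2 fold change against WT changed sign under any alternative. This was largely set in advance. The stricter thresholds and the minimum of 10 reads keep the deposited log2 fold change, and WT and mutant libraries of called genes did not overlap. Calls were lost in 23 of 90 combinations of gene, table and analysis setting, and in 27 of 60 with a library left out, where the lone library of a group was assumed to vary like the other group. The refits took the spread from listed genes alone, and the cause of each lost call was not tested.

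In Mbd3ab KO the 3 called genes of the 10 became 1 under a threshold of 0.01, 1 with at least 2-fold change, 0 with edgeR and 1 with a DESeq2 refit, and 0 to 3 with a library left out. The 3 called genes of the other imprinted list became 1 with at least 2-fold change, 0 with edgeR and 1 with library totals, and 0 to 2 with a library left out. In Mbd3c KO the 1 called gene became 0 at an adjusted p of 0.01 and 0 with edgeR, and 0 to 1 with a library left out. With edgeR 0 of all 443 and 38 listed genes passed in these tables, though all 443 and 38 had an unadjusted p under 0.05, and the DESeq2 refit called 239 and 26. In Mbd3abc KO the 5 became 3 under a threshold of 0.01 and 3 to 4 with a library left out, and the 25 of the other list became 15 with at least 2-fold change and 8 to 14 with a library left out. In Mbd3cΔN-ab KO the 6 became 2 with at least 2-fold change and 1 to 6 with a library left out. The 18 of the other list became 9 under a threshold of 0.01, 7 with at least 2-fold change, 10 with a DESeq2 refit, 11 with library totals, and 3 to 9 with a library left out. Between Mbd3abc KO and Mbd3cΔN-ab KO the 1 differing gene became 0 to 2 with a library left out, and over all genes 340 became 29 without either WT library and 738 with DESeq2.

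Differences that passed no test changed sign 3 times. Grb10 between Mbd3abc KO and Mbd3cΔN-ab KO ranged from -0.39 without the second Mbd3abc KO library to 0.76 without the first. The difference of Mbd3cΔN-ab KO from Mbd3ab KO ranged from -0.011 to 0.88 for Peg3 and from -0.29 to 0.043 for Peg10, with the second and the first Mbd3cΔN-ab KO library left out at the ends. Plagl1, Pon3 and Zim3 in WT, and Nnat in Mbd3cΔN-ab KO, rest on fewer than 10 reads per library, which limits their ratios. The same holds for Dppa3, Ascl2 and Magel2 in Mbd3abc KO. Gatm had 4 and 14 reads in WT. Dppa3 had 4 and 12 reads in Mbd3cΔN-ab KO, and 29 and 3 in Mbd3ab KO.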
